A study of Mus musculus with 8 samples.

Results

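At ZT16, 16 h after light onset and thus in the dark phase in which mice are active, the cortex of 2 mice lacking both SHARP1 and SHARP2 was compared with the cortex of 2 wildtype mice. The comparison took the 4 arrays labelled ZT16 out of the 8 of the series, as the sample labels give genotype and time, and it covers every probe set except the manufacturer's controls. It addresses what the loss of the 2 repressors does to cortical transcript levels in the phase of the day in which the animals are mostly awake.

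SHARP1, encoded by *Bhlhe41* and also called DEC2, and SHARP2, encoded by *Bhlhe40* and also called DEC1, are basic helix-loop-helix proteins that bind E-box sequences in promoters and repress transcription there. They belong to the accessory loop of the circadian clock, in which CLOCK or NPAS2 pairs with BMAL1 to activate E-box genes, and in which PER, CRY and SHARP proteins hold this activity down. In cortical neurons, wakefulness and synaptic activity also switch on a set of immediate early genes, which encode transcription factors and signalling inhibitors and are transcribed within minutes.

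All mice were C57/bl6, 4 months old by the labels, and kept in groups under equal spans of light and dark. The wildtype mice (WT) carried intact alleles of both genes. The double null mutants (S1/2-/-) lacked *Bhlhe40* and *Bhlhe41* in every cell from conception, so that effects of development and of adult loss cannot be told apart. Both genotypes were males bred from parents heterozygous for both genes, per the methods. The tissue was cortex cut from coronal slices behind bregma, and each array holds the RNA of 1 mouse. A second set of 2 WT and 2 S1/2-/- arrays, taken at ZT4 in the light phase, shares no array with the comparison, and its values are set beside those at ZT16 where they bear on it.

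The deposited value of a probe set is a MAS5 signal, a background-corrected brightness on a linear scale, and every array had been scaled to the same trimmed mean. Median signals were 195 and 186 in WT and 203 and 206 in S1/2-/- at ZT16, and log2 signals of the 2 WT arrays correlated at 0.936 over all probe sets, those of the S1/2-/- arrays at 0.940, and those of arrays of different genotype at 0.931 to 0.940. Pyramidal cell genes of the cortex were strongly present, with signals of 4534 and 3614 for *Nrgn* (neurogranin) in WT and 6633 and 5442 in S1/2-/-. The only probe set of the targeted genes that could be used, that of *Bhlhe40*, measured 1188.5 and 1285 in WT against 1043 and 889 in S1/2-/- (log2 difference -0.36, standard error 0.14, adjusted p = 0.381 from limma). Where it lies with respect to the deletion was not stated, so it does not check the genotype. *Bhlhe41* was not analysed here.

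Below, a difference is the mean log2 signal of the S1/2-/- mice minus that of the WT mice at ZT16, so a negative value is a lower signal in the mutants, and its standard error (SE) comes from limma fitted to all 8 arrays. A probe set was called at an adjusted p under 0.05 and a fold over 1.5. Of 7453 probe sets tested, limma called 1, which is 0.0134%. It has no gene symbol in the annotation used and had signals of 2986 and 2443 in WT and 5543 and 5448 in S1/2-/-, a 2.03-fold rise (log2 difference 1.02, SE 0.11, adjusted p = 0.032). Its suffix marks probes chosen under relaxed rules. At an unadjusted p under 0.05 with the same fold, 219 probe sets were higher in S1/2-/- (2.94% of those tested) and 100 lower (1.34%). Centring every array on its median moved the median of all differences from 0.0063 to -0.096 and turned this split to 137 higher and 207 lower (39.8% higher, against 68.7%), quantile normalization gave 182 and 136 (57.2%), and directions below are thus read against the scaling of the deposited signals. Leaving out WT ZT16 replicate 1 raised the number called to 154, with 123 higher and 31 lower, whereas without WT ZT16 replicate 2 it was 2. With the filter raised to the 60th percentile 6 were called, among them *Bcan*, *Cldn11*, *Grik5* and *Fgfr1op2*. When the 4 ZT16 arrays were fitted alone the 1 call was *Ttr*. The number was 0 without the filter on dim probe sets, 0 without the intensity trend, 0 with the replicate block, and 0 without WT ZT4 replicate 1, WT ZT4 replicate 2, S1/2-/- ZT4 replicate 1 or S1/2-/- ZT16 replicate 1. Since limma called no gene with a symbol in the fit used throughout, the values below describe 4 mice. The p-values rest on the spread within all 4 groups of 2 mice, moderated over probe sets of like signal.

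Several genes of the immediate early response had lower signals in S1/2-/- than in WT mice at ZT16. *Dusp1*, which encodes the phosphatase that switches off MAP kinases, read 2129 and 2141 in WT mice and was at 1149 and 1082 in S1/2-/- mice, 1.91-fold less (log2 difference -0.94, SE 0.19, adjusted p = 0.212). The WT mice lay within a few units of each other and both were above both mutants. *Fos*, a subunit of the transcription factor AP-1 and the usual marker of recently active neurons, had 1026 and 679 in WT and 445 and 341 in S1/2-/- (difference -1.10, SE 0.37, adjusted p = 0.365). For *Nr4a1*, an orphan nuclear receptor, the signals were 2279.8 and 1379 in WT against 883 and 930.4 in S1/2-/- (-0.97, SE 0.31, adjusted p = 0.361). Neither gene's groups overlapped, although the WT mice differed from each other by more than the mutants did. *Ier2*, a short-lived nuclear protein, had 501 and 402 in WT and 255 and 229 in S1/2-/- (-0.89, SE 0.23, adjusted p = 0.281). *Junb*, a partner of FOS, had 1181 and 807 in WT against 607 and 626 in S1/2-/- (-0.66, SE 0.23, adjusted p = 0.365), and a dimmer probe set of the same gene measured 688 and 361 against 257 and 204. *Egr1*, a zinc finger factor of synaptic plasticity, was high in all 4 mice, with 4991 and 4458 in WT and 3767 and 3225 in S1/2-/- (-0.44, SE 0.29, adjusted p = 0.597).

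**Figure D1:**
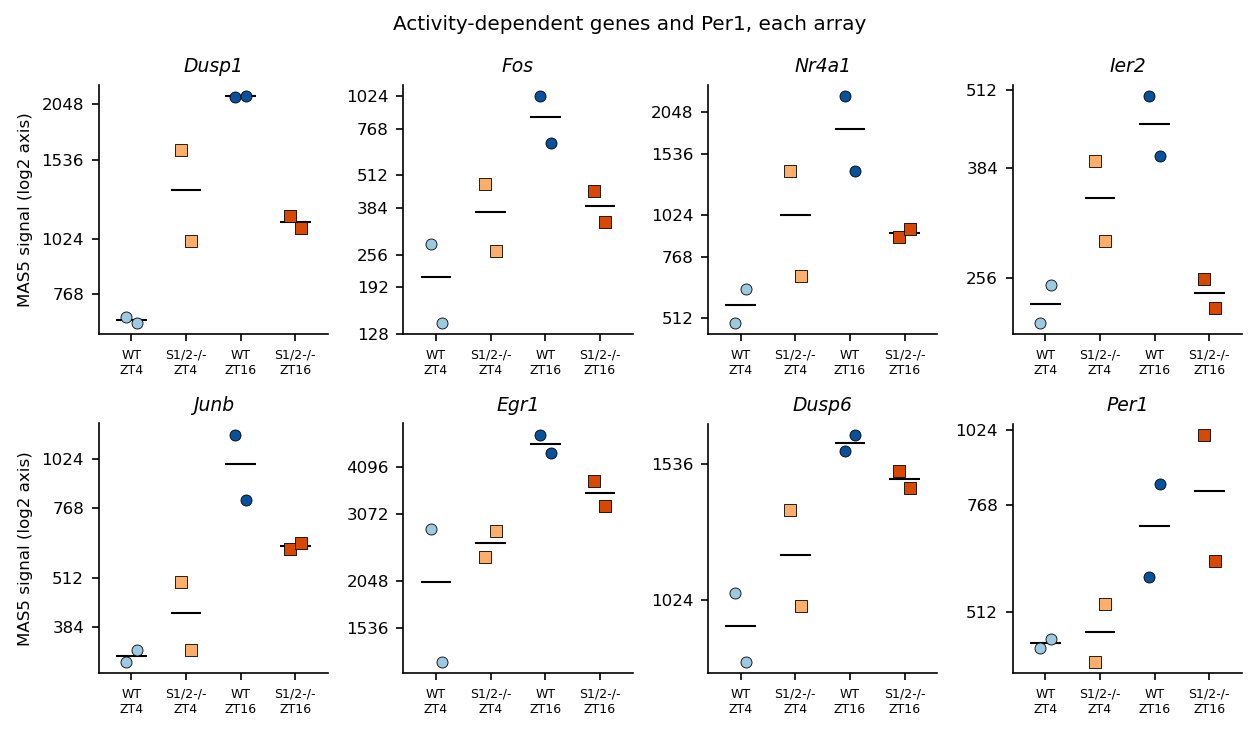
MAS5 signals on a log2 axis of 6 immediate early genes, *Dusp6* and *Per1* in each mouse. Points are single arrays, circles WT and squares S1/2-/-, light colours ZT4 and dark colours ZT16, and bars are group means (n = 2 mice). For *Dusp1*, *Fos*, *Nr4a1*, *Ier2*, *Junb*, *Egr1* and *Dusp6* both S1/2-/- arrays at ZT16 lie below both WT arrays, while for *Per1* they overlap.

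Of 13 tested genes for AP-1, EGR and NR4A factors and their kin, 10 were lower in S1/2-/- and 7 had both mutants below both WT mice (53.8%), against 21.5% of all 5690 genes tested. Their median difference was -0.38, where that of all genes was -0.0036. In this direction 4 of them had an unadjusted p under 0.05 and over 1.5-fold, namely *Fos*, *Nr4a1*, *Ier2* and *Junb*, where 1.28% of all genes did. The study singled out *Fos*, *Nr4a1*, *Junb* and *Egr1* on the same arrays, so the list is not independent evidence of its direction. The remaining members ranged from -0.63 for *Ier3*, an early response gene of cell survival, to 0.50 for *Nr4a2*, a relative of *Nr4a1*, with *Jund*, a subunit of AP-1 that is expressed constantly, at -0.03. When single arrays were left out the median lay between -0.55 and -0.11, and it was -0.03 when all 19 members on the array, dim ones included, were counted. At ZT4 the same 13 genes had a median difference of 0.28, with 3 lower in the mutants.

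Beyond the transcription factors the direction was mixed. Among the other phosphatases of MAP kinases, *Dusp6*, which acts on ERK, had 1601 and 1678 in WT and 1508 and 1433 in S1/2-/- (-0.16, SE 0.16), and *Dusp8* and *Dusp16* were at 0.02 and 0.13. Of 15 effector genes that neurons induce with activity, 6 were lower and 9 higher, with a median of 0.12 (-0.03 without S1/2-/- ZT16 replicate 1). *Rgs2*, which shortens G protein signals, had 925 and 881 in WT and 636 and 746 in S1/2-/- (-0.39, SE 0.16, adjusted p = 0.4). The neuronal pentraxins, secreted proteins that cluster AMPA receptors, lay the other way. *Nptx1* measured 1674 and 1361 in WT against 2524 and 1742 in S1/2-/- (0.47, SE 0.18, adjusted p = 0.378), and *Nptx2* gave 474 and 423 in WT against 590.3 and 644 in S1/2-/- (0.46, SE 0.17, adjusted p = 0.376). *Bdnf*, the growth factor most closely tied to neuronal activity, was near its WT level (0.12, SE 0.16).

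The promoters of these genes can carry elements through which activity and the clock act, and 4 are shown for the genes the comparison turns on. Each runs from 250 bases before to 50 bases after the transcription start in the RefSeq annotation of GRCm38.p6, written 5′ to 3′ on the strand of the gene. Capitals mark the E-box CACGTG, to which SHARP proteins and CLOCK with BMAL1 bind, and the cyclic AMP response element (CRE) TGACGTCA or its half-site TGACG on either strand, to which CREB binds. The full CRE contains 2 overlapping half-sites. In *Per1* the E-box alone is marked.
*Dusp1*, chr17:26508423-26508722, minus strand: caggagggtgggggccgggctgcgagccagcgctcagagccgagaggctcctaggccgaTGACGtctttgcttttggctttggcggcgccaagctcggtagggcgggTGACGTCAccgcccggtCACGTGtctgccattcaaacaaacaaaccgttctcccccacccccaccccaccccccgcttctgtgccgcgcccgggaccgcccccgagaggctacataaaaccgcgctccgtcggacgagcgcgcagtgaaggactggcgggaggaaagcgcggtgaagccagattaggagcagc
*Fos*, chr12:85473640-85473939, plus strand: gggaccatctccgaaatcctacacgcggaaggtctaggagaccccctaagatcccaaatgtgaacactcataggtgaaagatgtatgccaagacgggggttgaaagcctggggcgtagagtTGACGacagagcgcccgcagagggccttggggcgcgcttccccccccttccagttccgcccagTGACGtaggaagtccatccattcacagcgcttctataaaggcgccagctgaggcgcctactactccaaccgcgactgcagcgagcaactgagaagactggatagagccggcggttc
*Nr4a1*, chr15:101266596-101266895, plus strand: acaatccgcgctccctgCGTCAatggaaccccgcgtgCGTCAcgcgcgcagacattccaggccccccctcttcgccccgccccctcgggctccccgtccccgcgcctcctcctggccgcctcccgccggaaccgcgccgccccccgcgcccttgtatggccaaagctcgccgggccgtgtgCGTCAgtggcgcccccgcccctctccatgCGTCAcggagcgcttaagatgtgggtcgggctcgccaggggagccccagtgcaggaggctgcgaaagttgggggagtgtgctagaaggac
*Per1*, chr11:69098699-69098998, plus strand: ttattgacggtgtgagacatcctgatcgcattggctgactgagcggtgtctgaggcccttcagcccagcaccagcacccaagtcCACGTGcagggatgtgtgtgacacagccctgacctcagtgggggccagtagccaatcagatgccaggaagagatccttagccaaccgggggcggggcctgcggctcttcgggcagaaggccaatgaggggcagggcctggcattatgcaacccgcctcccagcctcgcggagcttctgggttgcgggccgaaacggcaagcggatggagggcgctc
*Dusp1* thus held a full CRE and an E-box within the same stretch, starting 143 and 126 bases before the start. *Fos* held 2 half-sites and *Nr4a1* 4, and neither held the E-box letters in this window. *Per1* held an E-box 166 bases before the first of its 2 annotated starts. Over all 32851 RefSeq promoters, 7.15% held the E-box, 1.79% the full CRE and 20.81% a half-site. The shares of genes that follow count a gene if any of its listed promoters held the letters, so they are not per promoter. Of the 11 immediate early factor genes with a promoter in the table, 8 held a half-site and 1 an E-box. Among all genes tested 36.95% held a half-site and 13% an E-box. Of the genes at an unadjusted p under 0.05 and over 1.5-fold, 143 higher and 75 lower ones had a listed promoter. An E-box was held by 13 of the higher (9.09%) and 7 of the lower ones (9.33%). A half-site was held by 41 of the higher (28.67%) and 20 of the lower ones (26.67%). A match of letters is a description of the window and does not show binding.

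Core clock genes, the best known targets of SHARP proteins, gave no separation of the genotypes at ZT16 for *Per1*, *Per2*, *Cry1* or *Cry2*. *Per1*, a light- and activity-responsive repressor of the clock, had 585 and 833 in WT and 1004 and 620.3 in S1/2-/- (0.18, SE 0.25). *Per2*, its paralog, had 264 and 312 in WT against 300.2 and 288 in S1/2-/- (0.03, SE 0.31, a sign that turned with quantile normalization and median centring). *Cry1*, which acts with the PER proteins, had 879 and 1116 in WT and 919 and 677 in S1/2-/- (-0.33, SE 0.22), and *Cry2* had 572 and 293 in WT against 604 and 505 in S1/2-/- (0.43, SE 0.27). With these standard errors, differences of that order were not detectable with 2 mice per genotype. Of 8 tested repressors, *Bhlhe40* among them, 3 were lower, with a median of 0.04 whose sign turned under 5 of the alternatives, and *Nr1d1*, the heme-binding repressor REV-ERB alpha, was at -0.01. The 4 tested activators were all higher in S1/2-/-, with a median of 0.47, which was 0.23 with the filter at the 60th percentile and 0.19 without WT ZT16 replicate 2. *Arntl*, which encodes BMAL1, had 591 and 544 in WT and 689 and 640.5 in S1/2-/- (0.23, SE 0.15, adjusted p = 0.604), without overlap. *Rora*, an activator of *Arntl*, had 498 and 236 in WT against 544 and 617 in S1/2-/- (0.76, SE 0.30, adjusted p = 0.398), and 0.22 without WT ZT16 replicate 2, the lowest array. *Npas2*, the partner of BMAL1 that is prominent in forebrain, had 178 and 109 in WT against 255 and 202 in S1/2-/-, and *Clock* itself was at 0.07 (SE 0.22). Among 6 genes of clock output and of the turnover of clock proteins 4 were higher, with a median of 0.22, and *Csnk1d*, a kinase that marks PER proteins for decay, had 1702 and 1383 in WT and 1865 and 1979 in S1/2-/- (0.32, SE 0.13, adjusted p = 0.392). At ZT4 the median of the 4 activators was -0.28.

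Markers of tissues that border the cortex varied between arrays, and their levels stand beside the results above. *Ttr*, the carrier of thyroid hormone that the choroid plexus secretes, had 2582 and 2412 in the WT mice and 102 and 150.4 in the S1/2-/- mice at ZT16 (difference -4.33, SE 0.89, adjusted p = 0.212), the lowest difference of all genes tested. Its SE was 0.22 when the 4 ZT16 arrays were fitted alone, and it was called there and when S1/2-/- ZT4 replicate 2 was left out. *Kl*, the co-receptor Klotho of the same epithelium, was below the filter and had 399.7 and 213 in WT and 12.4 and 13.1 in S1/2-/-, both mutants below the 10th percentile of their arrays, which was 17.0 and 16.8. Of 14 genes of the choroid plexus on the array, 11 were lower in S1/2-/-. Their summed signal was 6959 and 6537 in WT and 3622 and 3595 in S1/2-/-, a fall that lay mostly in *Ttr* and *Kl*. Only 5 of the 14 passed the filter, 4 lower and 1 higher (*Igfbp2*, 0.26), with a median difference of -0.15. Neurons of the striatum, which lies beneath the cortex in the same slices, are marked by the neuropeptide precursors *Penk* and *Tac1*. *Penk*, measured by a probe set that may also detect related sequences, had 8476 and 12383 in WT and 5828 and 9833 in S1/2-/- (-0.44, SE 0.26), and *Tac1* had 854 and 1308 in WT against 513 and 915 in S1/2-/- (-0.63, SE 0.33). Both genes overlapped between the groups, and so did the summed signal of 11 striatal genes, with 14942 and 19576 in WT and 11120.5 and 17247.5 in S1/2-/-. *Drd2*, the dopamine receptor of striatal projection neurons, had 564 and 594 in WT against 499 and 756 in S1/2-/- (0.09, SE 0.26; -0.017 with median centring). None of these markers was at 0 on any array. Their part in the differences of the immediate early genes, several of which the striatum also expresses, was not tested.

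*Bcan*, which encodes brevican, a proteoglycan of the perineuronal matrix, had 2011 and 2332 in WT and 3814 and 3796 in S1/2-/-, 1.76-fold more (difference 0.81, SE 0.11, adjusted p = 0.0578). *Cldn11*, the claudin of myelin tight junctions, had 1193 and 1313 in WT against 2162 and 2505 in S1/2-/-, 1.86-fold more (0.90, SE 0.13, adjusted p = 0.0578). The filament protein of astrocytes, *Gfap*, had 510.5 and 667 in WT and 1378 and 1150.4 in S1/2-/-, 2.16-fold more (1.11, SE 0.19, adjusted p = 0.12). For all 3 the groups were separate, but the probe sets were picked by their p at ZT16. The second probe sets of *Bcan* and *Gfap* were also higher (1.53 and 0.87). The ZT4 arrays, none of which are shared, gave differences of 0.71, 1.15 and 1.18. In bulk tissue, a change in the number of cells of a type and a change in RNA per cell cannot be told apart.

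**Figure D2:**
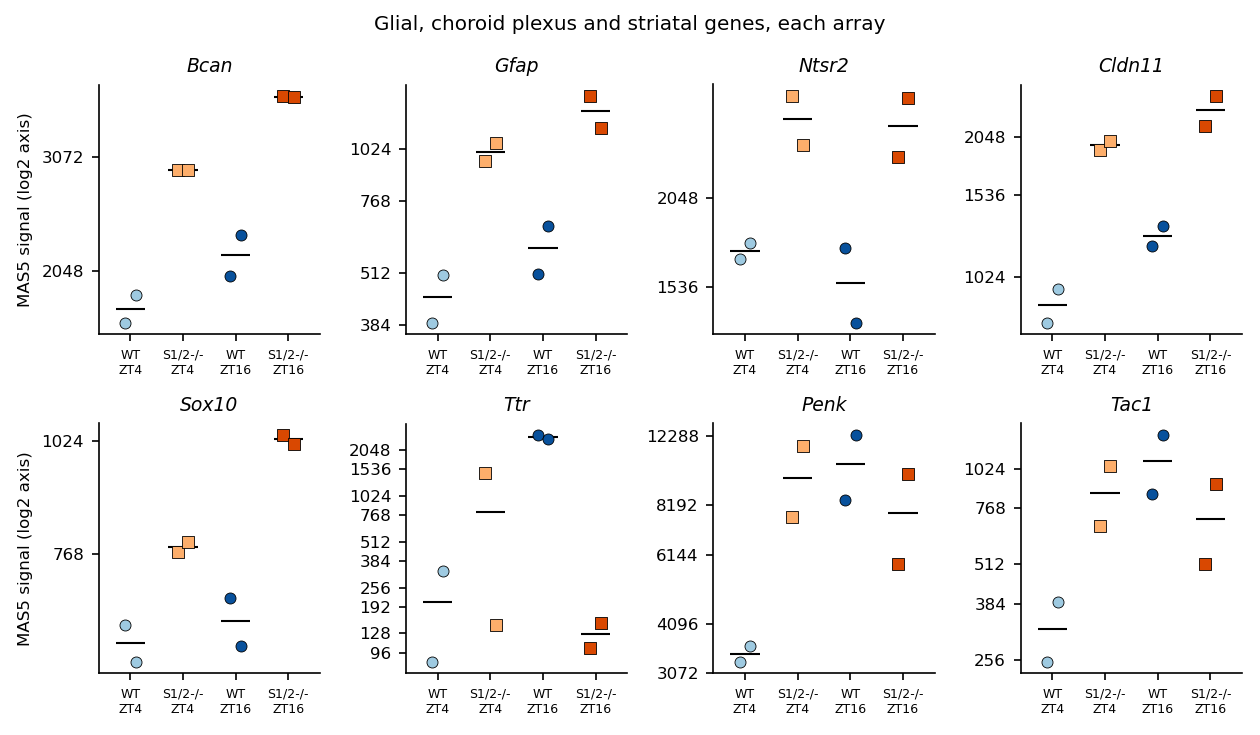
MAS5 signals on a log2 axis of glial genes (*Bcan*, *Gfap*, *Ntsr2*, *Cldn11*, *Sox10*), of *Ttr* of the choroid plexus and of the striatal genes *Penk* and *Tac1* in each mouse. Circles are WT and squares S1/2-/-, light colours ZT4 and dark colours ZT16, and bars are group means (n = 2 mice). The 5 glial genes are higher in S1/2-/- than in WT at both times without overlap, while *Ttr* lies between 102 and 150 in S1/2-/- and between 2412 and 2582 in WT at ZT16, and *Penk* and *Tac1* overlap there.

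Of 20 astrocyte genes, 16 were higher in S1/2-/- and 8 had both mutants above both WT mice (40%), against 20.7% of all genes, with a median of 0.15. The median was 0.05 with median centring and 0.05 without S1/2-/- ZT16 replicate 2. An unadjusted p under 0.05 with over 1.5-fold was reached by 4, where 2.51% of all genes did in this direction. *Ntsr2*, the neurotensin receptor of astrocytes, had 1742 and 1367 in WT and 2332 and 2822 in S1/2-/- (0.73, SE 0.15, adjusted p = 0.212). *Slc1a2*, the main glutamate transporter, had 368 and 202 in WT against 488 and 514 in S1/2-/- (0.88, SE 0.27, adjusted p = 0.346, and 0.45 without WT ZT16 replicate 2), and *Aqp4*, the water channel of astrocyte endfeet, differed by 0.75 (SE 0.26). Other astrocyte genes did not share the pattern: *Apoe*, *Aldoc* and *Cst3*, among the most abundant transcripts of these cells, were at -0.13, -0.12 and -0.11. The summed signal of the list overlapped, with 93864.5 and 103300.0 in WT and 97444 and 101477 in S1/2-/-.

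Of 16 tested oligodendrocyte genes, 10 were higher and 6 lower. In 8 both mutants lay above (50%, against 20.7% of all genes) and in 4 both below (25%, against 21.5%). The median was 0.24, and 0.14 without WT ZT16 replicate 1. *Sox10*, the transcription factor of the lineage, had 686 and 606 in WT and 1042 and 1017 in S1/2-/- (0.67, SE 0.14, adjusted p = 0.212), and *Mal*, a proteolipid of compact myelin, had 1315 and 1314 in WT against 1863 and 1813 in S1/2-/- (0.48, SE 0.11, adjusted p = 0.255). *Mog*, *Mag* and *Ugt8a*, a surface antigen, an adhesion protein and a lipid enzyme of myelin, lay at 0.68, 0.47 and 0.59. In turn, *Anln*, an actin-binding protein found in myelin, had 955 and 893 in WT and 628 and 680.1 in S1/2-/- (-0.50, SE 0.16, adjusted p = 0.349), and *Cryab*, a small heat shock protein, was at -0.51. Their summed signal was 37321 and 37599 in WT and 39473 and 41992 in S1/2-/-. At ZT4 only 1 of the 16 was lower, and the median was 0.69.

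Markers of most other cell types and regions had smaller medians than the glial lists, but those of thalamus and hypothalamus did not. Of 18 vessel genes, 7 had both mutants above (38.9%, against 20.7% of all genes) and 2 both below (11.1%, against 21.5%). Of 11 genes of thalamus and hypothalamus, 5 lay above (45.5%) and 2 below (18.2%). The median was 0.08 over 12 genes of microglia and complement (sign turned under 2 of the alternatives), 0.11 over 18 genes of vessels, 0.03 over 16 genes of meninges and matrix (sign turned under 4), -0.09 over 4 of blood (sign turned under 2), -0.01 over 19 of cortical interneurons (sign turned under 2) and 0.11 over 8 of the hippocampus. *Flt1*, a receptor for vascular growth factor, had 222 and 219 in WT and 416 and 283 in S1/2-/- (0.64, SE 0.25), and *Rgs5* of pericytes had 343 and 288 in WT against 481 and 384 in S1/2-/- (0.45, SE 0.20). *Csf1r*, the growth factor receptor of microglia, was at -0.24 (SE 0.12), while *Cx3cr1* of the same cells was at 0.52 (SE 0.29). Among 14 genes of cortical layers, with a median of 0.08 (-0.02 with median centring and without WT ZT16 replicate 2), *Cux2*, a homeodomain factor of the upper layers, had 200.2 and 149.7 in WT and 355 and 299.9 in S1/2-/- (0.91, SE 0.31, adjusted p = 0.365). *Nrgn*, already given, was at 0.57 (SE 0.14, adjusted p = 0.263), and *Cdh13*, an adhesion protein, at 0.51 (SE 0.15). The 11 genes of thalamus and hypothalamus had a median of 0.27 (0.11 without WT ZT16 replicate 1). Among them were *Pcp2*, a G protein modulator known from Purkinje cells, with 193 and 208 in WT and 780.3 and 509.9 in S1/2-/- (1.65, SE 0.37, adjusted p = 0.255), and *Pdc*, phosducin, with 336 and 249 in WT against 96.9 and 91.7 in S1/2-/- (-1.62, SE 0.39, adjusted p = 0.263). Both are read by probe sets whose suffix marks probes chosen under relaxed rules.

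The machineries of protein turnover, translation and respiration were lower by small amounts in many members at once. The study's gene set enrichment on the same ZT16 arrays had already given proteasome, ribosome and oxidative phosphorylation sets as higher in WT. Counts of these 3 lists are thus not independent evidence of their direction. The 26S proteasome is built of a 20S core, whose alpha and beta rings hold the proteolytic sites, and a 19S cap of ATPases and other subunits that unfolds the substrate. Of 36 tested subunits, 29 were lower in S1/2-/- (80.6%), where 50.6% of all genes were, and 17 had both mutants below both WT mice (47.2%, against 21.5% of all genes), with a median of -0.11. By particle, 13 of 15 core subunits were lower (median -0.12), 4 of 5 ATPases (-0.16), 10 of 13 other cap subunits (-0.10) and 2 of 3 activators and inhibitors (-0.20). With single arrays left out these medians came as near to 0 as -0.05 for the core and -0.04 for the ATPases (without S1/2-/- ZT16 replicate 1 and WT ZT16 replicate 1) and -0.0088 for the activators and inhibitors (without S1/2-/- ZT16 replicate 2). *Psmb6*, the beta1 subunit with caspase-like activity, stood out with 1129.6 and 1419 in WT and 816 and 724 in S1/2-/- (-0.72, SE 0.15, adjusted p = 0.212). *Psmb3* had 2073 and 2829 in WT against 1776 and 1781 in S1/2-/- (-0.45, SE 0.14, adjusted p = 0.355), and *Psmb1* had 2119 and 2333 in WT against 1684 and 1823 in S1/2-/- with one probe set (-0.34, SE 0.11) and a difference of -0.09 with another. Only *Psmb6* passed an unadjusted p with the fold.

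Of 24 tested proteins of the cytosolic ribosome, 18 were lower (75%, against 50.6% of all genes) and 15 had both mutants below (62.5%, against 21.5%), with a median of -0.20. The large subunit contributed 8 of 11 and the small subunit 10 of 13, with medians of -0.18 and -0.20. With dim members on the array included, 20 of 33 were lower (median -0.13). These were 8 of 15 of the large subunit (median -0.08) and 12 of 17 of the small (-0.20). *Rps3a1*, at the high level typical of these genes, had 8326 and 9112 in WT and 7259 and 7352 in S1/2-/- (-0.25, SE 0.08, adjusted p = 0.354), and *Rps7* had 7072 and 7273 in WT against 5766 and 6292 in S1/2-/- (-0.25, SE 0.09, adjusted p = 0.365). The dimmer *Rpl22* had 545 and 734 in WT against 341 and 427 in S1/2-/- (-0.73, SE 0.20, adjusted p = 0.306). Ribosomal protein genes have many processed copies in the genome, and their probes may read more than one.

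The respiratory chain gave the same picture with more genes. Of 60 tested subunits of oxidative phosphorylation, 45 were lower (75%, against 50.6% of all genes) and 32 had both mutants below both WT mice (53.3%, against 21.5%), with a median of -0.16, and none passed an unadjusted p with the fold in either direction. Complex I, the entry point for NADH, had 22 of 26 lower (median -0.16), complex III with cytochrome c 8 of 9 (-0.24), complex IV, which reduces oxygen, 6 of 9 (-0.16), and the ATP synthase 7 of 12 (-0.08). Complex II, which also serves the citric acid cycle, had 2 of 4. The 3 members with the largest moderated statistic were all of complex III. *Uqcrc2*, a core subunit, had 5327 and 5807 in WT and 4355 and 3913 in S1/2-/- (-0.43, SE 0.09, adjusted p = 0.248). *Uqcr10* had 2807 and 3084 in WT against 2263 and 2224 in S1/2-/- (-0.39, SE 0.10, adjusted p = 0.281), and *Uqcrb* had 1371 and 1580.1 in WT against 1114 and 1018 in S1/2-/- (-0.47, SE 0.13, adjusted p = 0.317). The probe sets of *Uqcrc2* and *Uqcrb* may also detect related sequences.

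**Figure D3:**
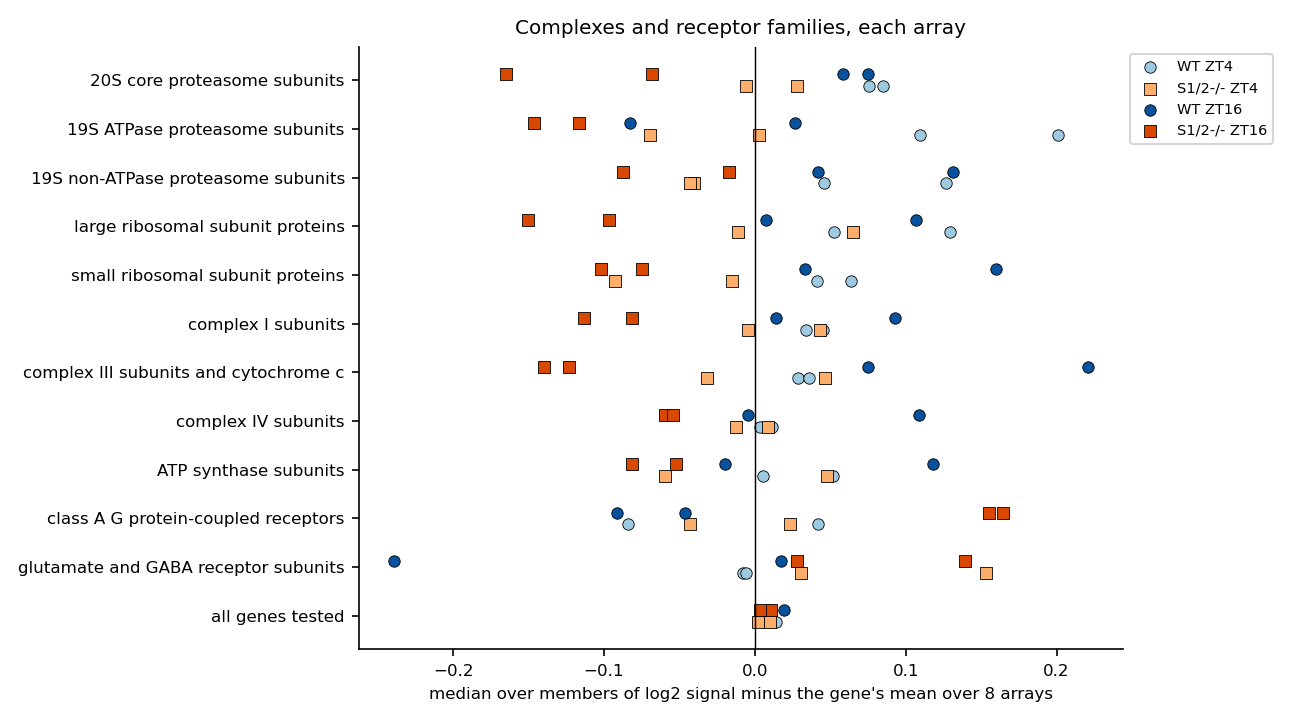
Median over the tested members of each complex or receptor family of the log2 signal minus the mean of that gene over the 8 arrays, 1 point per array. Circles are WT and squares S1/2-/-, light colours ZT4 and dark colours ZT16. At ZT16 both S1/2-/- arrays lie below both WT arrays in each of the proteasome, ribosome and respiratory groups shown, and above them in the class A receptors, while the median of all genes is within 0.02 of 0 on every array.

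On single arrays at ZT16 the median deviation of the respiratory chain from the gene means was -0.004 and 0.11 in WT and -0.10 and -0.08 in S1/2-/-. That of the proteasome was 0.05 and 0.04 in WT against -0.15 and -0.10, and that of the ribosome 0.03 and 0.13 against -0.13 and -0.08. With single arrays left out the median difference lay between -0.21 and -0.10 for the respiratory chain, -0.17 and -0.10 for the proteasome, and -0.27 and -0.13 for the ribosome. At ZT4 the medians were -0.03, -0.10 and -0.09 in the same order. Splicing and other mRNA processing factors had 26 of 45 lower and a median of -0.04, against -0.0036 for all genes, with *Snrpg*, a core protein of the spliceosome, at 939 and 1013 in WT and 702 and 804 in S1/2-/- (-0.38, SE 0.14). Housekeeping genes had a median of 0.05 over 11, a sign that turned under 6 of the alternatives, among them quantile normalization and median centring, and *Actb* differed more between the WT mice (2189.8 and 4104) than between genotypes (2379 and 2149.8 in S1/2-/-).

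Receptors for transmitters lay on the other side. Of 17 tested subunits of glutamate and GABA receptors, 14 were higher in S1/2-/- and 9 had both mutants above both WT mice (52.9%, against 20.7% of all genes), with a median of 0.30 that lay between 0.09 and 0.38 with single arrays left out, the lowest without WT ZT16 replicate 2. *Grik5*, a kainate receptor subunit, had 1492 and 1490.1 in WT and 2561 and 2350.0 in S1/2-/-, 1.65-fold more (0.72, SE 0.11, adjusted p = 0.0578), although a second, dimmer probe set was at -0.22 (SE 0.54). *Grid1*, a delta receptor subunit that acts at synaptic contacts, had 599 and 369.8 in WT against 808 and 751 in S1/2-/- (0.73, SE 0.25, adjusted p = 0.365, and 0.38 without WT ZT16 replicate 2). *Grin2b*, an NMDA receptor subunit, had 161 and 32 in WT against 266 and 183 in S1/2-/- (1.62, SE 0.61, adjusted p = 0.381), and 0.45 without WT ZT16 replicate 2, by far the lowest array. *Grin2a* went the other way (-0.42, SE 0.39).

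Class A G protein-coupled receptors, the rhodopsin-like family of receptors for amines, peptides and lipids, are mostly rare transcripts. Only 34 of 97 on the array passed the filter. The study's enrichment analysis gave class A receptors as higher in S1/2-/- on the same arrays, so their direction here is not independent evidence. Of these, 25 were higher and 13 had both mutants above both WT mice (38.2%, against 20.7% of all genes), with a median of 0.17, which was 0.06 with median centring and 0.10 without WT ZT16 replicate 2. *Lpar1*, a lysophosphatidic acid receptor found in oligodendrocytes, had 378 and 386 in WT and 588 and 578 in S1/2-/- (0.61, SE 0.18, adjusted p = 0.333). *S1pr3*, a sphingosine phosphate receptor, had 289 and 314 in WT against 436 and 437 in S1/2-/- (0.54, SE 0.24, adjusted p = 0.45). Besides *Ntsr2*, these are the 2 members with the largest statistic, and *Lpar1* and *Ntsr2* are also genes of glia.

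**Figure D4:**
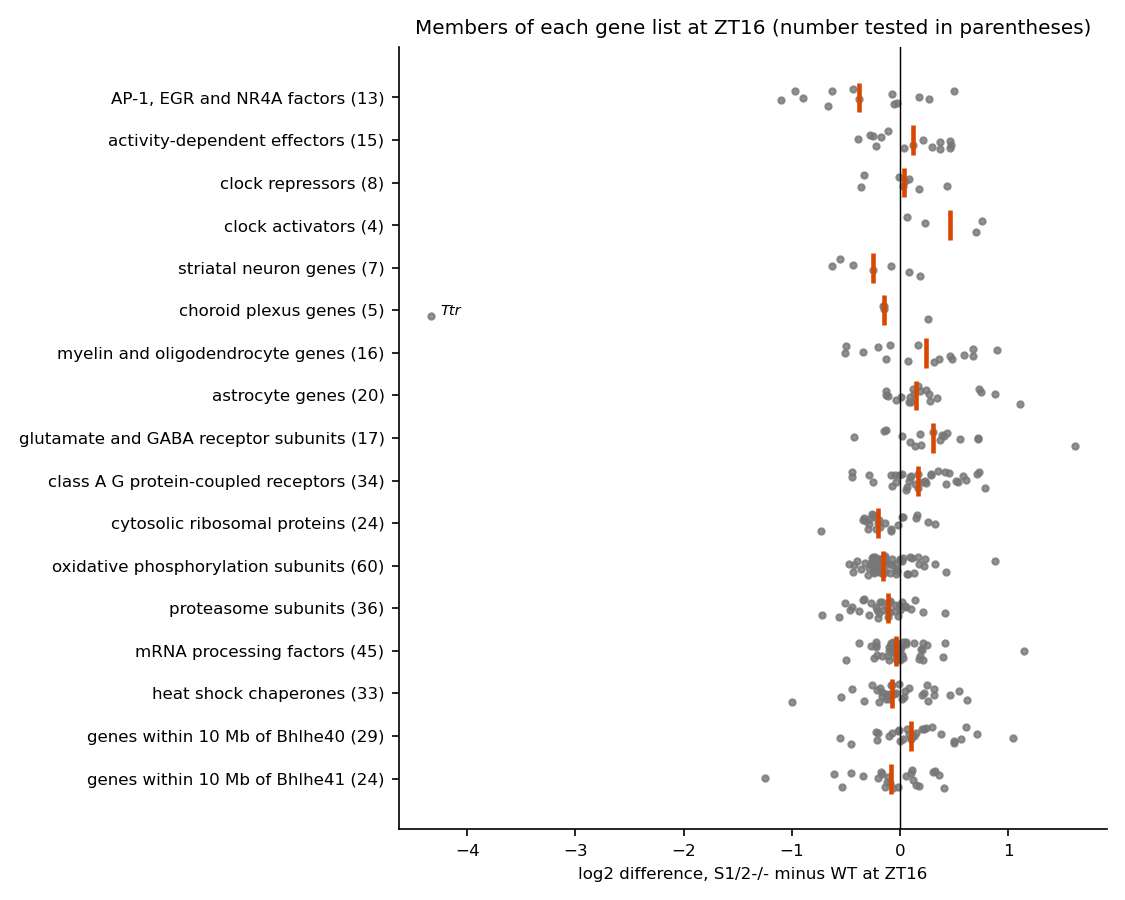
Log2 difference between S1/2-/- and WT at ZT16 of each tested member of 17 gene lists (grey points) and the median of the list (vertical bar), with the number tested in parentheses. Bars of the respiratory chain, ribosome and proteasome lie left of 0 and those of glia, receptors and clock activators right of it, while single members spread on both sides in each list except the clock activators.

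Chaperones and stress genes were mixed. *Hspa1a*, the inducible HSP70, had 577 and 625 in WT and 296 and 308 in S1/2-/-, 1.99-fold less (-0.99, SE 0.17, adjusted p = 0.125), and its ZT4 difference was -1.01. Its neighbour and near copy *Hspa1b* had 494 and 721 in WT against 632 and 265 in S1/2-/-, with 1 mutant within the WT range (-0.54, SE 0.36), and signals of these probe sets may not separate the 2 genes. Over 33 heat shock proteins 20 were lower, with a median of -0.08. *Cct4*, a subunit of the chaperonin that folds actin and tubulin, had 1705 and 2051 in WT and 1302 and 1452 in S1/2-/- (-0.44, SE 0.14). Of 18 chaperones of the endoplasmic reticulum 12 were higher, with a median of 0.11 (0.0036 with median centring, and -0.01 without S1/2-/- ZT16 replicate 1), while *Xbp1*, a transcription factor that induces them, had 1928 and 2374 in WT against 1707 and 1468 in S1/2-/- (-0.43, SE 0.14). Genes that respond to glucocorticoids had 9 of 21 lower and a median of 0.06 (-0.04 with median centring, and also below 0 without WT ZT16 replicate 1 or S1/2-/- ZT16 replicate 1), with *Ddit4*, an inhibitor of mTOR, at 814 and 1168 in WT and 623 and 721 in S1/2-/- (-0.54, SE 0.18). The helix-loop-helix factors that share the dimer domain of the SHARP proteins had 10 of 17 lower, with a median of -0.05. *Tcf12*, a partner of many of them, had 772 and 785 in WT against 503 and 500.1 in S1/2-/- (-0.63, SE 0.17, adjusted p = 0.281), and *Id2*, an inhibitor without a DNA-binding region, 3687 and 4046 in WT against 2958 and 2782 in S1/2-/- (-0.43, SE 0.13, adjusted p = 0.344).

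The MHC class I and metabolic lists were small. Of 7 MHC class I genes 5 were lower, with a median of -0.26; *H2-T18* had 457 and 268 in WT and 854 and 565 in S1/2-/- (0.99, SE 0.28, ZT4 difference 1.74), *H2-Q4* had 489 and 357 in WT against 227.5 and 301 in S1/2-/- (-0.68, SE 0.23), and both are read by probe sets that may cross-detect this family. *Gatm*, the first enzyme of creatine synthesis, had 2582 and 2904 in WT against 1988 and 1998 in S1/2-/- (-0.46, SE 0.11, adjusted p = 0.263), in a list of 11 genes of adenosine and creatine metabolism with a median of 0.06 whose sign turned under 4 of the alternatives. *Fdft1*, which commits isoprenoids to cholesterol, had 1556 and 1657 in WT against 1136.5 and 1291 in S1/2-/- (-0.41, SE 0.14), in a list of 16 enzymes with a median of 0.0017.

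Both mutated genes lie on mouse chromosome 6, and sequence of the original embryonic stem cell strain can stay linked to a mutated locus, so genes within 10 Mb of either in the RefSeq annotation (GRCm38.p6) are given apart. *Fgfr1op2*, 0.72 Mb from *Bhlhe41*, had the lowest p of all named genes on the lower side, with 801 and 787 in WT and 369 and 304 in S1/2-/-, 2.37-fold less (difference -1.25, SE 0.18, adjusted p = 0.0578). It was also lower at ZT4, with 737 and 731 in WT and 575 and 435 in S1/2-/- (-0.55). Of the 24 genes around *Bhlhe41*, 14 were lower, with a median of -0.08, among them *Wbp11*, a splicing factor, with 1687 and 1816 in WT against 1421 and 1148 in S1/2-/- (-0.45, SE 0.14, ZT4 difference -0.53), and *Ldhb*, a lactate dehydrogenase subunit, with 5008 and 5901 in WT against 4372 and 4222 in S1/2-/- (-0.34, SE 0.11). Of the 29 around *Bhlhe40*, 10 were lower, with a median of 0.11; *Gpr27*, an orphan receptor, had 621 and 663 in WT and 909.8 and 902 in S1/2-/- (0.50, SE 0.14), *Cxcl12*, a chemokine, 351 and 459 in WT against 547 and 648 in S1/2-/- (0.57, SE 0.19), and *Chl1*, a neural adhesion molecule, 263 and 76.7 in WT against 306 and 282 in S1/2-/- (1.05, SE 0.46). Without WT ZT16 replicate 2, which lay far below the other 3 arrays, the difference of *Chl1* was 0.16. Whether flanking sequence has a part in these differences was not tested.

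The remaining genes with the lowest p belong to no list. On the lower side *Avpi1*, a gene first found as induced by vasopressin, had 358 and 419.6 in WT and 118 and 60.2 in S1/2-/-, 4.6-fold less (-2.20, SE 0.34, adjusted p = 0.0734). *Fahd1*, a mitochondrial enzyme, had 464 and 611 in WT against 261 and 301 in S1/2-/- (-0.93, SE 0.19), *Tmem106c*, a membrane protein, 776 and 973 in WT against 540.1 and 452 in S1/2-/- (-0.81, SE 0.17), and the abundant *Ociad1* 5424 and 6785 in WT against 4357 and 3269 in S1/2-/- (-0.68, SE 0.14), each at an adjusted p of 0.212. *Ccs*, the copper chaperone of superoxide dismutase, had 251 and 258 in WT against 36.8 and 86.6 in S1/2-/- with one probe set (-2.17, SE 0.47) and a difference of 0.13 with another. On the higher side *Marcksl1*, an actin-regulating substrate of protein kinase C, had 709.7 and 598 in WT and 1278 and 2048 in S1/2-/- (1.31, SE 0.23, adjusted p = 0.125), and *Adgrg1*, an adhesion receptor of neural progenitors and glia, 364 and 261 in WT against 599.7 and 611 in S1/2-/- (0.97, SE 0.19, adjusted p = 0.212). *Gpatch2*, a nuclear protein, had 63.6 and 75.3 in WT against 212 and 246 in S1/2-/- (1.72, SE 0.35). *Gng12*, a G protein gamma subunit, had 198 and 162 in WT against 381 and 347 in S1/2-/- (1.02, SE 0.21), while a brighter probe set of it differed by 0.08. Apart from the second probe sets of *Ccs* and *Gng12*, these were picked by their p at ZT16. Separation of their groups is thus no further evidence.

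The differences at ZT16 were then set against those at ZT4. At ZT4 limma called 7 of 7453 probe sets (0.0939%), 6 higher and 1 lower in S1/2-/-. The 6 higher ones stand for *Cldn11*, *Mal*, *Gsn* and, with 3 probe sets, *Mobp*, all expressed in oligodendrocytes. Of these, *Cldn11* had 1.15 at ZT4 and 0.90 at ZT16, and *Mal* 0.88 and 0.48. *Gsn*, the actin-severing gelsolin, had 1.22 and 0.32 in the same order. *Mobp*, a structural protein of myelin, had 0.79 at ZT4 and 0.07 at ZT16 with its brightest called probe set. Its other called probe sets had 0.84 and 0.29, and 1.18 and 0.37. Over all tested probe sets the differences at the 2 times correlated weakly (Pearson r = 0.158, Spearman rho = 0.192, across 7453 probe sets that are not independent), and 57.3% had the same sign. Among the 219 higher at ZT16 at an unadjusted p, 147 were also above 0 at ZT4 (67.1%, median 0.16), and among the 100 lower, 54 were below 0 (54%, median -0.05).

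A direct test asked whether the genotype difference depended on the time, as the difference at ZT16 minus that at ZT4. limma called 0 of 7453 probe sets (0%) for it, whereas 153 were positive and 145 negative with over 1.5-fold at an unadjusted p under 0.05. *Dusp1* had the lowest adjusted p among the named genes (value -1.86, SE 0.27, adjusted p = 0.295), and it was higher in S1/2-/- than in WT at ZT4 (1616 and 1009 against 683 and 662). *Fos* and *Nr4a1* had values of -1.93 and -1.77, *Penk* and *Tac1* of -1.89 and -2.05, and *Ttr* of -5.81 (SE 1.26, adjusted p = 0.465). For the striatal and choroid plexus markers, 7 of 7 and 5 of 5 tested members were higher in S1/2-/- at ZT4, where the summed striatal signal was 6929 and 7493 in WT against 13054 and 19697 in S1/2-/-, and that of the choroid plexus 3002 and 3296 against 5717 and 4176.5. Their part in the time dependence of *Dusp1*, *Fos* and *Nr4a1*, which has the same sign, was not tested. Without S1/2-/- ZT4 replicate 2 limma called 3, among them *Dusp1* (-2.20, adjusted p = 0.0104) and *Ttr* (-7.46, adjusted p = 0.0363), and with the replicate block it called *Penk* and *Tac1* (adjusted p = 0.0284 and 0.0404). By contrast the values were 0.10 for *Bcan*, -0.07 for *Gfap* and 0.02 for *Hspa1a*, with adjusted p of 0.954 or more.

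**Figure D5:**
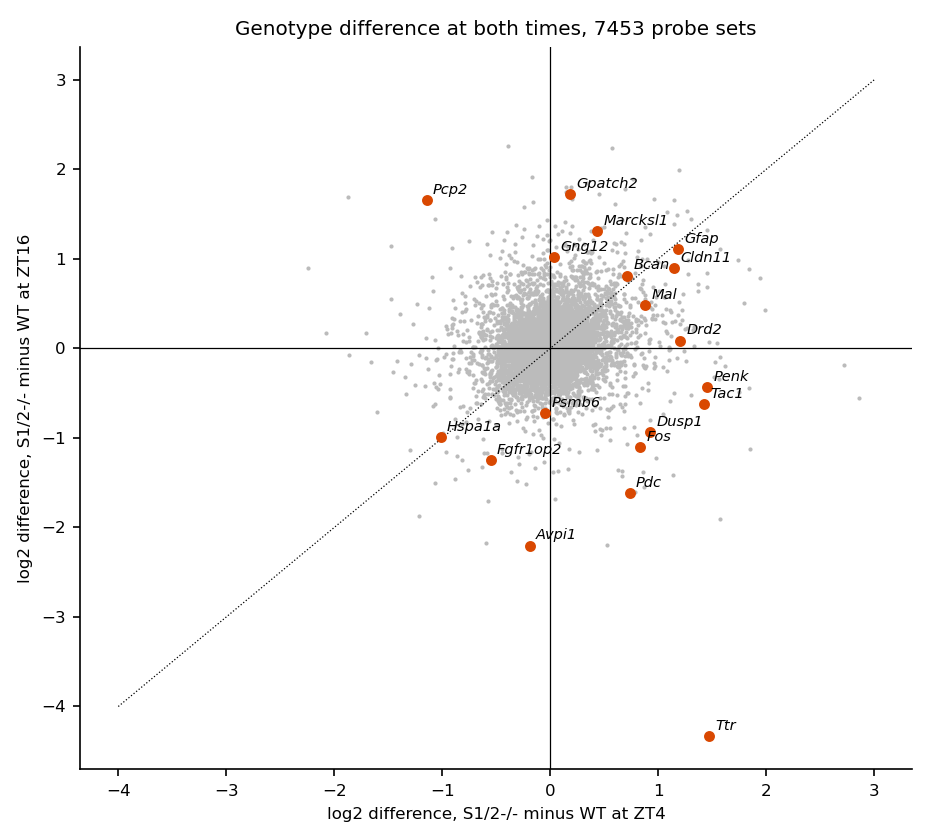
Log2 difference between S1/2-/- and WT at ZT4 (x axis) and at ZT16 (y axis) for 7453 probe sets, with named genes in colour. The dotted line marks equal differences. *Bcan*, *Cldn11*, *Gfap* and *Hspa1a* lie near the line, *Gng12*, *Psmb6* and *Avpi1* near the vertical axis, and *Dusp1*, *Fos*, *Penk*, *Tac1* and *Ttr* are positive at ZT4 and negative at ZT16.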

How the data were processed

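RNA from the cortex of 8 mice, 2 per genotype and time, was hybridised to 1 Affymetrix array per mouse, and groups follow the sample labels. The deposited values are MAS5 signal intensities on a linear scale, which the authors had scaled to a common trimmed mean of 500 over probe sets. The MAS5 version was not given in the sources read. The labels name Trizol and the methods a column kit for RNA preparation.

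Of 12488 probe sets, 66 controls were left out. 10833 had 1 gene symbol, 396 several and 1193 none in the platform annotation. Signals below 1 (64 values) were set to 1 before log2. Probe sets with a mean log2 signal at or above the 40th percentile (6.79) were tested (7453). limma 3.58.1 in R 4.3.3 was fitted to all 8 arrays as 4 group means, with eBayes and an intensity trend, leaving 4 residual and 6.02 prior degrees of freedom, and p-values were adjusted by the Benjamini-Hochberg method over all tested probe sets. The call was an adjusted p under 0.05 with over 1.5-fold, two-sided. A gene was represented by its tested probe set with 1 symbol and the highest mean, which gave 5690 genes. The number of arrays limits the precision. Scripts were checked on simulated data.

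Named genes were the 10 tested probe sets with the lowest p among those over 1.5-fold higher and the 10 among those lower, up to 3 members of each list by the absolute moderated statistic, the genes the paper names for these arrays, and *Bhlhe40*. Of these, *Enpp2* and *Adora2a* were not analysed here, nor was *Bhlhe41*. *Ier2* is named through its list, and *Ier1*, which the paper names, was not analysed here. *Ier3*, *Nr4a2*, *Jund*, *Dusp8*, *Bdnf*, *Nr1d1*, *Clock*, *Aqp4*, *Apoe*, *Aldoc*, *Cst3*, *Mog*, *Mag*, *Ugt8a*, *Cryab*, *Grin2a*, *Mobp* and *Gsn* fall outside this rule and were chosen after their values were seen. The comparison, the 32 gene lists and the named genes were chosen with earlier results of these data known. Alternatives varied the filter (none, or the 60th percentile), the scaling (quantiles or array medians), the offset (16 added to each signal), the trend, the arrays fitted (ZT16 only, or each array left out), the adjustment, and a replicate block.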

Additional observations from a re-analysis of the deposited data

How the results depend on the processing

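The number of probe sets called at ZT16 was sensitive to the settings. limma called 0 without the filter, 0 without the intensity trend of the variance, 6 with the filter at the 60th percentile, and 319 when the p-value was left unadjusted. With single arrays left out it lay between 0 and 154, and the highest value came without WT ZT16 replicate 1 (154), while leaving out S1/2-/- ZT4 replicate 2 gave 3 and leaving out WT ZT16 replicate 2 gave 2. At ZT4 the 7 calls became 12 with the 60th percentile filter, 11 with median centring, 0 without the trend and 248 unadjusted, and lay between 0 and 14 with single arrays left out. For the difference between the times, 298 passed unadjusted and 0 to 17 when single arrays were left out, 17 without WT ZT16 replicate 1 and 3 without S1/2-/- ZT4 replicate 2. Over all tested probe sets, deviations of same-numbered arrays from their group means correlated at 0.037 at ZT16 and 0.098 at ZT4. *Penk* and *Tac1* were lower in replicate 1 than in replicate 2 of every group. Pairing of single genes by replicate number was not tested. With a replicate block limma called 0 at ZT16, 4 at ZT4 and 2 for the difference between the times. At an unadjusted p, the number higher at ZT16 was 393 without the filter, 107 with the 60th percentile filter, 137 with median centring and 166 to 500 with single arrays left out, and the number lower was 230, 50, 207 and 92 to 199, the highest of both again without WT ZT16 replicate 1. Among the named genes the direction turned for *Drd2* with median centring (-0.017), for *Per2* with quantile normalization (-0.031) and median centring (-0.069), and otherwise only where an array was left out, with ranges of -0.21 to 0.39 for *Drd2*, -1.17 to 0.083 for *Hspa1b*, -0.086 to 0.15 for *Per2*, -0.17 to 0.52 for *Per1*, -0.25 to 0.50 for *Dusp16*, -0.052 to 0.92 for *Cry2*, -0.089 to 2.64 for *Dpp4*, -0.64 to 0.062 for *Hba-a1*, -0.084 to 0.66 for *Slc4a1*, -0.44 to 0.020 for *Cck* and -0.86 to 0.046 for *Actb*. All other genes named by the rule kept their direction under the alternatives run, and the cause of the changed counts was not tested. Genes chosen outside the rule were not covered. Among them were *Clock* and *Dusp8*, whose ZT16 differences lay near 0. *Mobp* was another, at 0.07 with its brightest called probe set and at 0.29 and 0.37 with its other called ones. In 34 cases a named gene passed the limit under an alternative, mostly without WT ZT16 replicate 1. With 2 mice per group, the standard errors of *Ttr*, *Kl*, *Npas2*, *Dpp4* and *Grin2b* exceeded 0.60. The fit to the 4 ZT16 arrays alone has 2 residual degrees of freedom.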

Other observations

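Of 936 genes with more than 1 tested probe set, 550 (58.8%) had all probe sets on the same side of 0 at ZT16, and of the 84 among them with a probe set at an unadjusted p under 0.05 and over 1.5-fold, 55 (65.5%) did. Probe sets with an r, f or i suffix, chosen under relaxed rules, made up 14.2% of those tested and 18.5% of those passing this limit. In 3 equal classes of mean signal, from dim to bright, 6.52%, 4.31% and 2.01% of probe sets passed it.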
